A study of Mus musculus with 18 samples.

Results

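The miRNAs described are the mature arms of miR-146a, miR-146b and miR-155, 3 hairpins linked to the NF-kappaB pathway as its targets or its regulators. They were chosen by name and comprise 6 mature miRNAs, mmu-miR-146a-5p, mmu-miR-146a-3p, mmu-miR-146b-5p, mmu-miR-146b-3p, mmu-miR-155-5p and mmu-miR-155-3p (written without the species prefix from here on), of the 1367 mature miRNAs listed in any table of the series. Of these, 5 had a value, and miR-146a-3p was not analysed here. The 3 5p arms are the abundant guide strands, and the 3p arms are the rarer partners cut from the same hairpins.

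Small RNAs were sequenced from mouse cells, 18 libraries in 8 groups, all labelled with the Eu-myc strain. Mouse embryonic fibroblasts (MEF) carried the oncogenic miR-17~92 cluster in 3 states, intact between loxP sites (fl/fl), deleted (d/d) and overexpressed (OV), with 3 libraries per state. These libraries are named FL3 to FL5, DEL1 to DEL3 and OV1, OV2 and OV4 after the column headers. A separate set of 6 MEF libraries, all from d/d cells, received an empty plasmid (Empty, E1 to E3) or overexpressed miR-290~295, the cluster typical of embryonic stem cells (miR-290 1 to 3). Splenic B cells had the same 3 states of miR-17~92 with 1 library per state. The labels do not state which Cre or which construct produced the d/d and OV cells, the ages, or whether replicates were separate cultures. P-values therefore measure only the spread between these libraries, which may be technical.

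NF-kappaB is a family of transcription factors that carries signals from cytokine, Toll-like and antigen receptors to genes of inflammation and survival. It induces the primary transcripts of miR-146a and miR-155, and miR-146 in turn represses the receptor adaptors Traf6 and Irak1, which closes a negative feedback loop. miR-155 is cut from a noncoding transcript of activated lymphocytes and macrophages, represses Ship1 and Socs1 among others, and is known as an oncogenic miRNA of B-cell lymphoma. In fibroblasts both families respond to inflammatory signals.

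The guide sequences show why miR-146a-5p and miR-146b-5p are treated as a pair and miR-155-5p is not. They are given from RefSeq (GRCm38.p6), 5′ to 3′, with the seed, bases 2 to 8, in capitals, and all 6 names matched an entry.
miR-146a-5p: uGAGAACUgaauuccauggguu
miR-146b-5p: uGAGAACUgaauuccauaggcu
miR-155-5p: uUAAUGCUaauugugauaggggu
miR-146a-5p and miR-146b-5p shared their seed with each other and with none of the other names among 1679 mature mouse entries, and no other entry had the seed of miR-155-5p. The paralogs were identical at 20 of 22 positions, with the substitutions G18A and U21C from miR-146a-5p to miR-146b-5p, counted from the 5′ end. Both differences lie outside the seed, near the 3′ end. No source used here gives the counting tool or its mismatch setting, so a small exchange of reads between the paralogs could not be checked. miR-146a-5p made up as little as 1.47% of the joint reads of the pair in 1 library, so an exchange from miR-146b-5p cannot have been larger there. In fl/fl MEF miR-146a-5p was 5.87% of the pair, so an exchange of that share would not be negligible beside it. Small changes of miR-146a-5p are to be read with that limit.

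The partner arms differ more, and they are shown because the balance of arms is described below, again with bases 2 to 8 in capitals.
miR-146b-3p: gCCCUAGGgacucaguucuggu
miR-155-3p: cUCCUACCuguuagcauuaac
None of the 1679 entries shared the seed of either arm. The 3 hairpins lie on different chromosomes, so no single transcript joins them. In GRCm38.p6 with the GENCODE M21 annotation, the miR-146a hairpin (Mir146) lies at chr11:43374397-43374461 on the minus strand, in no annotated host gene, with the lincRNA Gm12148 nearest at 11021 bases. The miR-146b hairpin (Mir146b) lies at chr19:46342762-46342870 on the plus strand, within the protein-coding gene Mfsd13a and outside its exons. The miR-155 hairpin (Mir155) lies at chr16:84714140-84714204 on the plus strand, in exon 2 of the lincRNA Mir155hg. No source used here gives the genome build behind the deposited tables.

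The manipulated clusters followed their labels. miR-17-5p, the first miRNA of miR-17~92, had 9879 to 13434 normalized counts in OV MEF, against 3029 to 3704 in fl/fl MEF and 37.2 to 53.0 in d/d MEF, and 197829, 56314 and 141 in the B-cell libraries OV, fl/fl and d/d. miR-290a-5p had 959 to 1097 normalized counts with the miR-290~295 construct and 0 to 3.37 with the empty plasmid. These groups also differed in residual miR-17-5p, with 2.12 to 7.22 normalized counts against 23.3 to 40.7 with the empty plasmid. Normalized counts are reads divided by 1 size factor per library, and each set was scaled on its own. Depth, as reads on listed miRNAs, was lowest in B cells (10203586 to 10612256 per library), higher in the 9 MEF libraries with different miR-17~92 states (17191892 to 24920911) and highest with the plasmids (43164128 to 58911475). The blood-cell markers on a list of 9 (both arms of miR-142a, miR-150, miR-223 and miR-144, and miR-451a) summed to 0.438 to 2.63 RPM (reads per 1000000 reads on listed miRNAs) in every MEF library. There 5 of the 9 had a row, and miR-451a was listed at 0 in 11 of 15 libraries. The same list summed to 10306 to 17973 in B cells, nearly all of it from both arms of miR-142a. miR-150-5p had only 1.04 to 6.22 RPM there. The fibroblast list (miR-143-3p, miR-145a-5p, both arms of miR-199a, miR-214-3p, miR-196a-5p and miR-10b-5p) summed to 39428 to 83643 in MEF and to 195 to 1138 in B cells.

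Overexpression of miR-17~92 in MEF came with more of both miR-146 guides, while miR-155-5p did not pass the test. miR-146a-5p had 4011, 3827 and 5297 normalized counts in OV1, OV2 and OV4 and 1587, 1435 and 1535 in FL3, FL4 and FL5. The groups were well apart, since the lowest OV library held more than the highest fl/fl library by a wide margin. The log2 change was 1.51 ± 0.15 (SE), a 2.85-fold rise (limma, adjusted p = 9.72e-05). miR-146b-5p, the far more abundant paralog, had 35960, 46935 and 58769 normalized counts in OV and 25741, 23304 and 24063 in fl/fl. It rose 1.90-fold, a log2 change of 0.93 ± 0.17 (limma, adjusted p = 0.00334), again without overlap, although the OV libraries spread more than the fl/fl libraries. miR-155-5p had 9693, 6637 and 5753 normalized counts in OV and 8008, 8076 and 8477 in fl/fl. OV1 lay above all fl/fl libraries, and OV2 and OV4 below them. Its log2 change was -0.19, with a 95% interval of -0.62 to 0.24 (limma, adjusted p = 0.466).

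In this comparison 2 of the 4 members kept after the filter on low values rose and 0 fell, where 15.6% of all 662 kept miRNAs rose and 15.7% fell. The members' median log2 change was 0.68, beside -0.07 over all kept miRNAs. In the spike-in table, where libraries were scaled on added RNAs, 112 miRNAs rose and 44 fell, against 103 and 104 without spike-ins, and with library medians re-centred 83 rose and 153 fell. The 2 miR-146 guides kept their rise under both scalings, with log2 changes of 1.65 and 1.06 in the spike-in table. The number of calls fell most when an fl/fl library was left out. It was 82 up and 60 down without FL3, 81 and 65 without FL4, and 72 and 52 without FL5. Without OV1, OV2 or OV4 it was 103 up and 129 down, 94 and 115, or 99 and 103. The fibroblast list had 4 of 7 markers past the threshold downward in OV, with summed levels of 59284 to 67637 RPM in OV and 59080 to 77687 in fl/fl, and with spike-in scaling 1 of 7 was past it. The part of these markers in the rise of the miR-146 guides was not tested. In bulk RNA, a change in the share of cells of a type and a change of RNA per cell cannot be told apart.

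**Figure D1:**
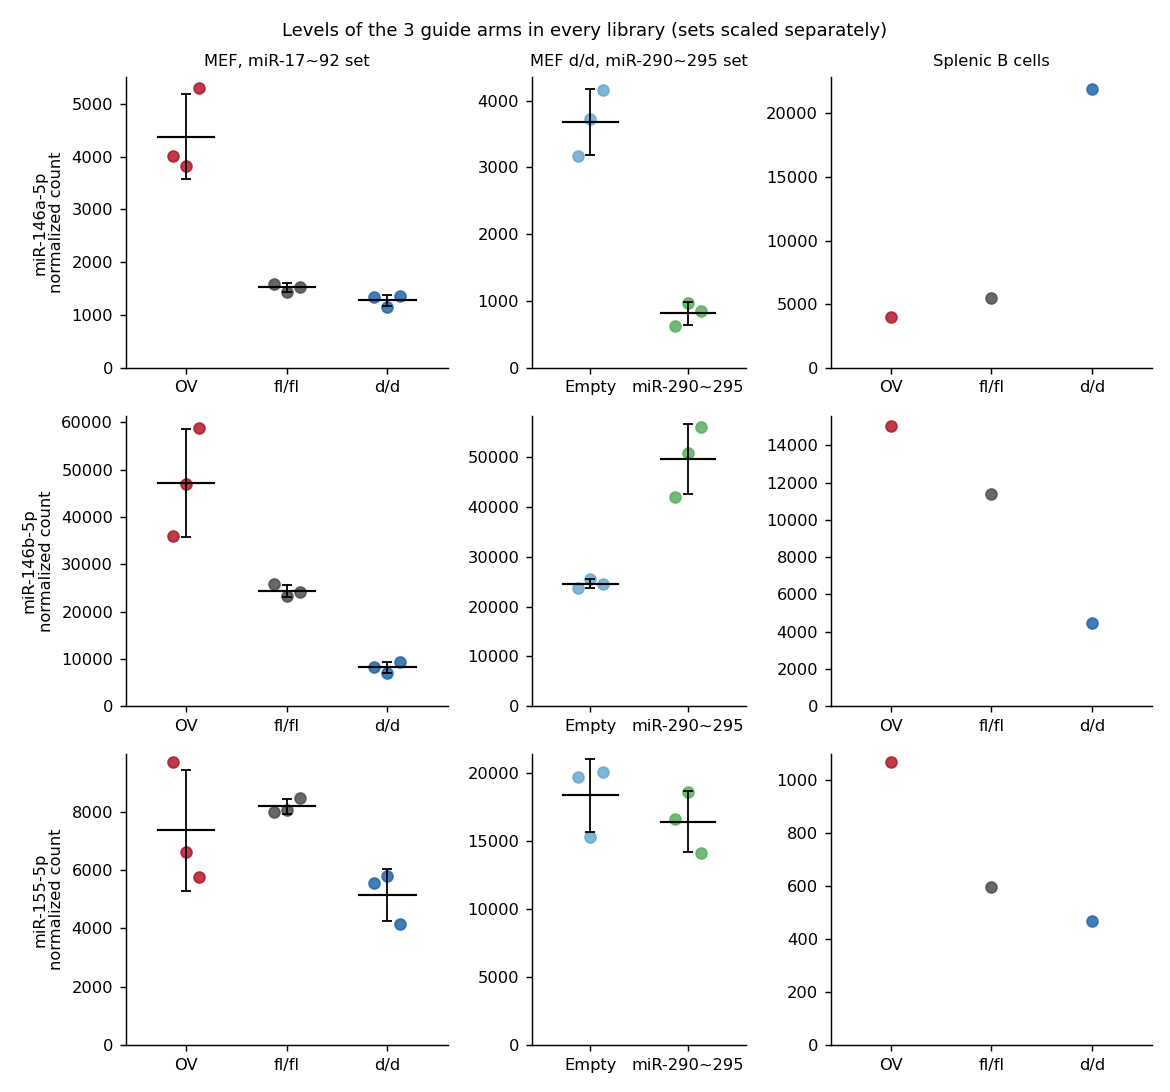
Normalized counts (y axis, from 0, without spike-in scaling) of miR-146a-5p, miR-146b-5p and miR-155-5p (rows) in every library (points) by group (x axis), with the mean and SD where a group has 3 libraries; the 3 sets (columns) were scaled separately. miR-146b-5p falls from OV through fl/fl to d/d in MEF, and the 2 paralogs go opposite ways in the miR-290~295 set and in d/d B cells.

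Deletion of the cluster in MEF came with less miR-146b-5p and less miR-155-5p, while the change of miR-146a-5p was small and depended on the scaling. miR-146b-5p had 8367, 7093 and 9403 normalized counts in DEL1, DEL2 and DEL3, all below the fl/fl libraries given above. Its level was 0.338 of that in fl/fl, a log2 change of -1.56 ± 0.17 (limma, adjusted p = 3.25e-05). miR-155-5p had 5556, 5784 and 4140 normalized counts in d/d, also below every fl/fl library. Its level was 0.624 of that in fl/fl, a log2 change of -0.68 ± 0.19 (limma, adjusted p = 0.0118, 0.0476 at most when 1 library was left out). miR-146a-5p had 1331, 1157 and 1348 normalized counts in d/d, each below the lowest fl/fl library. The difference was -0.25 ± 0.15 on the log2 scale and did not pass the test (limma, adjusted p = 0.167). It passed in the spike-in table, at -0.68 (adjusted p = 0.00169), and with medians re-centred, at -0.53 (adjusted p = 0.0301).

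Of the 4 kept members, 0 rose and 2 fell, where 30.7% of all kept miRNAs rose and 27.6% fell. The median log2 change was -0.47 in the members and 0.02 over all kept miRNAs. The spike-in table put 147 miRNAs up and 283 down, against 203 and 183 without spike-ins, and re-centring gave 162 and 245. Its median over all miRNAs moved to -0.39. Relative to that median miR-146a-5p was at -0.29, miR-155-5p at -0.72 and miR-146b-5p at -1.60, close to the -0.27, -0.70 and -1.58 of the table without spike-ins. The OV and the d/d comparison share the fl/fl libraries and are not independent.

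OV against d/d, the widest step in cluster dose, gave the largest differences of miR-146b-5p and a smaller one of miR-146a-5p. miR-146b-5p was 5.62-fold higher in OV, a log2 change of 2.49 ± 0.17 (limma, adjusted p = 1.13e-06). miR-146a-5p was 3.39-fold higher, at 1.76 ± 0.15 (limma, adjusted p = 2.78e-06). Mean levels of miR-146b-5p were 47221 ± 11407 (SD, n = 3) normalized counts in OV, against 24369 ± 1247 in fl/fl and 8288 ± 1157 in d/d. miR-146a-5p had means of 4378 ± 801, 1519 ± 77.0 and 1279 ± 106. The order was thus OV, fl/fl, d/d for both, with 1 step per dose in miR-146b-5p, and with the lower step of miR-146a-5p short of the threshold. miR-155-5p had means of 7361 ± 2068, 8187 ± 253 and 5160 ± 891, so that fl/fl and OV were not separated.

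For miR-155-5p, OV exceeded d/d by 0.49 on the log2 scale, with a 95% interval of 0.06 to 0.92 and an adjusted p of 0.0558 (limma). Leaving out 1 library moved that adjusted p between 0.0112, without OV4, and 0.191. It was past the threshold in the spike-in table, at 1.06 (adjusted p = 0.00116), and with edgeR (0.56, adjusted p = 0.0356) and DESeq2 (0.50, adjusted p = 0.0408). OV4 and DEL2 overlap, at 5753 and 5784 normalized counts. In OV against d/d 2 of 4 kept members rose and 0 fell, where 26.7% of all kept miRNAs rose and 25.7% fell. Their median log2 change was 1.13 beside 0.02 over all kept miRNAs. The spike-in table put 333 up and 120 down, against 177 and 170, and moved the median of all miRNAs to 0.60.

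**Figure D2:**
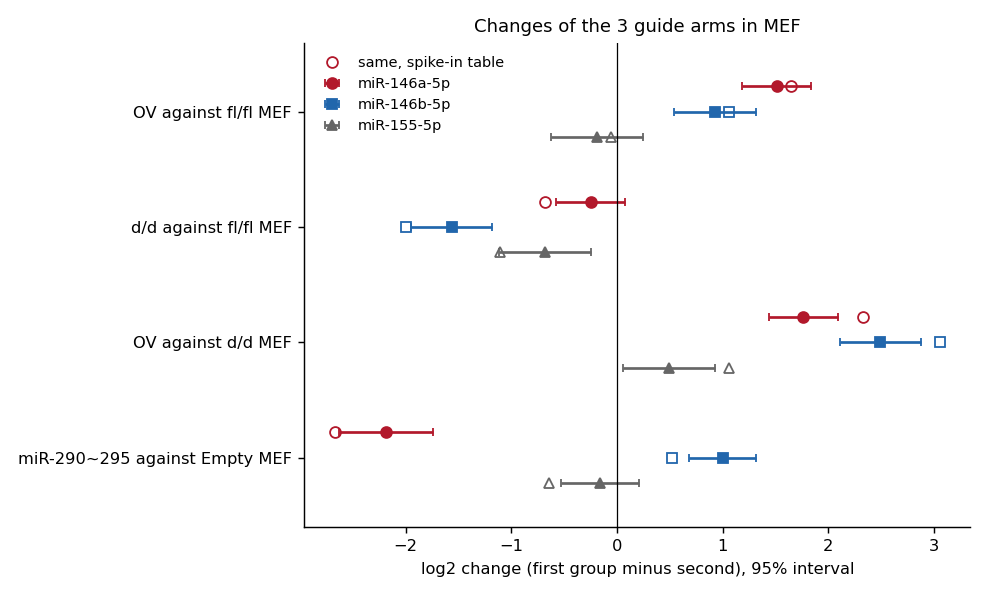
Log2 changes (x axis) of the 3 guide arms in the 4 MEF comparisons (y axis), as filled markers with 95% intervals from limma without spike-in scaling and as open markers in the spike-in table. The miR-146 guides are to the right of 0 in OV and on opposite sides of 0 with miR-290~295, and the intervals of miR-155-5p include 0 in OV against fl/fl and in miR-290~295 against Empty.

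Overexpressed miR-290~295 in d/d MEF came with changes of the 2 miR-146 paralogs in opposite directions. miR-146a-5p had 3168, 3719 and 4152 normalized counts in E1, E2 and E3 and 628, 973 and 845 in the 3 libraries with miR-290~295. The groups were far apart, and the level with the cluster was 0.220 of that with the empty plasmid (log2 change -2.19 ± 0.20, limma, adjusted p = 6.27e-05). miR-146b-5p had 23790, 25611 and 24505 normalized counts with the empty plasmid and 42085, 50801 and 56012 with miR-290~295. It rose 2.00-fold (log2 change 1.00 ± 0.14, limma, adjusted p = 0.000709), with no overlap. miR-155-5p had 19690, 15276 and 20079 normalized counts with the empty plasmid and 16577, 18571 and 14078 with miR-290~295. These ranges overlapped, and the log2 change was -0.16 ± 0.16 (limma, adjusted p = 0.463).

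Of the 5 members, all kept in this deeper set, 1 rose and 1 fell, where 16.7% of all 840 kept miRNAs rose and 22.3% fell. The members' median log2 change was 0.48 and that of all kept miRNAs 0.02. The spike-in table put 56 miRNAs up and 331 down, against 140 and 187, with a median over all miRNAs of -0.46, and re-centring put 107 up and 211 down. In it miR-146a-5p changed by -2.67, miR-146b-5p by 0.52 (adjusted p = 0.0161) and miR-155-5p by -0.64 (adjusted p = 0.0174). Relative to that median they were at -2.21, 0.97 and -0.19, against -2.21, 0.98 and -0.18 without spike-ins. The opposite directions of the paralogs thus held under both scalings, while the call of miR-155-5p did not. The summed fibroblast markers were lower with miR-290~295 as well, at 39428 to 45577 RPM against 61099 to 83643 with the empty plasmid. By marker, 5 of 7 were past the threshold downward and 1 upward, miR-196a-5p, with a log2 change of 1.76. Most of the sum was miR-143-3p, with a mean of 1571290 normalized counts against 2993490 with the empty plasmid. The part of these markers in the changes of the members was not tested.

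Because both paralogs were read in the same library, their ratio does not depend on the scaling. miR-146a-5p made up 8.61% ± 1.28 (SD, n = 3) of the joint miR-146 guide reads in OV MEF, against 5.87% ± 0.11 in fl/fl and 13.4% ± 0.79 in d/d. It made up 11.8%, 12.7% and 14.5% with the empty plasmid and 1.61% ± 0.23 with miR-290~295. The Empty cells, which are d/d as well, thus sat at the d/d level, and the fl/fl libraries had the smallest spread. The log2 ratio of miR-146a-5p to miR-146b-5p was 0.59 higher in OV than in fl/fl, 1.31 higher in d/d than in fl/fl and 0.73 lower in OV than in d/d, so it did not follow the cluster dose. With miR-290~295 it was 9.12-fold lower than with the empty plasmid. All 4 contrasts separated the libraries completely. The two-sided exact permutation p was 0.1 for each, the smallest that 3 libraries against 3 allow, and 0.15 after adjustment over the 12 ratio tests.

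**Figure D3:**
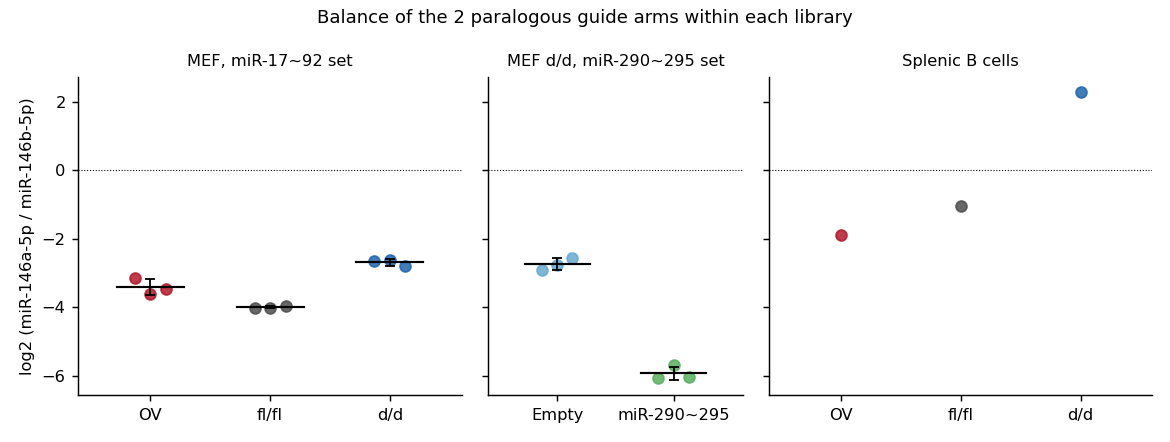
Log2 of miR-146a-5p over miR-146b-5p in every library (points) by group (x axis), with the mean and SD of groups of 3; the dotted line marks equal levels. Values are between -6.07 and -2.56 in MEF and reach 2.30 in d/d B cells, the only library above the line.

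The 3p arms were scarce, which limits what can be said of them. miR-155-3p had 42.7, 72.1 and 49.4 normalized counts in OV, against 63.4, 18.3 and 51.5 in fl/fl and 66.8, 79.9 and 63.8 in d/d. FL4 alone was low among the fl/fl libraries. No comparison of miR-155-3p passed the test (d/d against fl/fl, log2 change 0.81, limma adjusted p = 0.106), although leaving out FL3 brought d/d against fl/fl past it, at 1.15 (adjusted p = 0.0374). The d/d values lay just above the fl/fl values, at 63.8 against 63.4 for the nearest libraries, while the 5p arm of the same hairpin lay below them. With the empty plasmid miR-155-3p had 177, 203 and 265 normalized counts and with miR-290~295 316, 357 and 228 (log2 change 0.48 ± 0.24, limma, adjusted p = 0.138).

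miR-146b-3p had 7.94, 8.01 and 19.8 normalized counts in OV, against 7.16, 9.16 and 11.2 in fl/fl and 2.84, 4.36 and 3.19 in d/d, a mean under 10 that left it out of the test there. It was lowest in all 3 d/d libraries, as its 5p partner was. In the miR-290~295 set it had 6.75, 7.97 and 9.70 normalized counts with the empty plasmid and 15.9, 27.8 and 13.1 with the cluster. The log2 change of 1.07 ± 0.39 was near that of its 5p partner, without overlap, and did not pass the test (limma, adjusted p = 0.0583).

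No difference in the balance of the arms passed the test after adjustment, and the smallest p the design allows is above the threshold. The mean log2 ratio of miR-155-5p to miR-155-3p was 6.17 in d/d and 7.67 in fl/fl, and it was 0.64 lower with miR-290~295 than with the empty plasmid, both without overlap (exact permutation p = 0.1, adjusted p = 0.15). FL4 held the highest of these ratios, 8.71 on the log2 scale, and without it the difference of d/d minus fl/fl was -0.98. It was 0.87 higher in OV than in d/d (exact permutation p = 0.1), and between OV and fl/fl it did not separate the libraries (exact permutation p = 0.5). The d/d libraries held 64.9 to 83.1 normalized counts of the 5p arm for each of the 3p arm, and the fl/fl libraries 126 to 441. For miR-146b the log2 ratio of 5p to 3p was 1.07 higher in OV than in d/d (exact permutation p = 0.1), and the other 3 comparisons overlapped (exact permutation p = 0.2, 0.4 and 0.9).

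**Figure D4:**
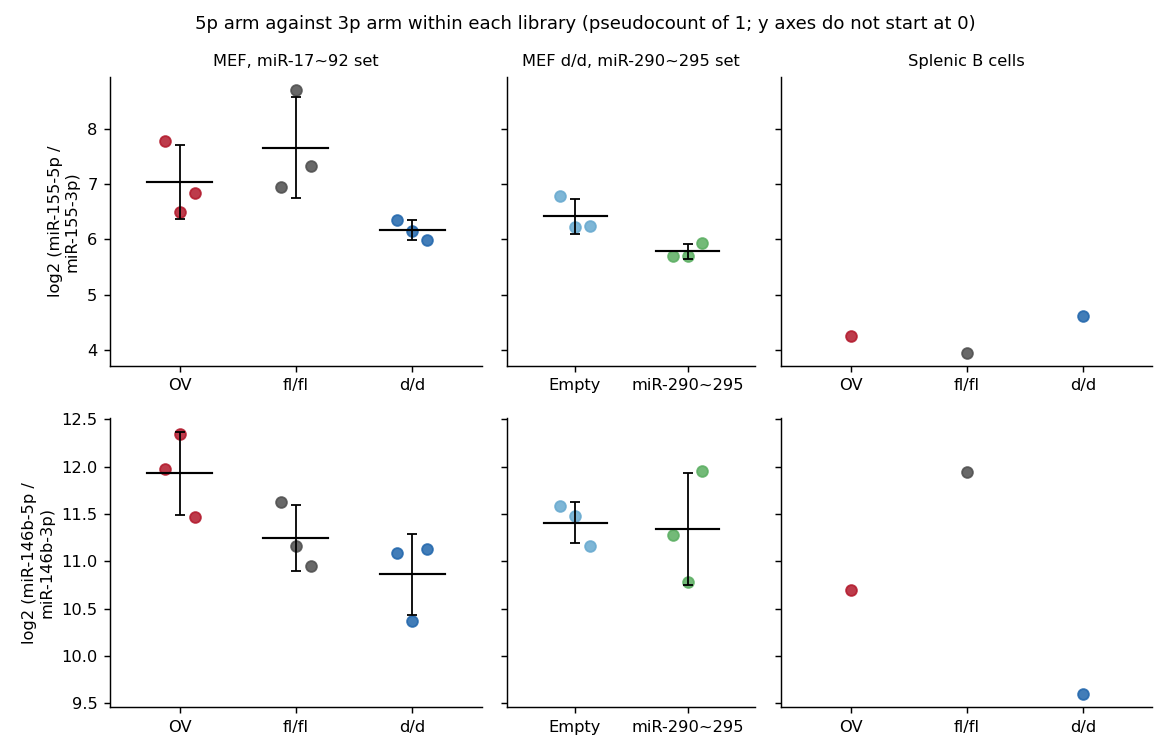
Log2 of the 5p over the 3p arm of miR-155 (top) and miR-146b (bottom) in every library (points) by group (x axis), computed with a pseudocount of 1, with the mean and SD of groups of 3. The miR-155 ratio is lower in every d/d library than in every fl/fl library, and FL4 stands above the other fl/fl libraries.

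In B cells miR-146a-5p was highest in d/d, where miR-146b-5p was lowest. There was 1 library per state, so no difference has a replicate check, and the 95% intervals cover counting error only. miR-146a-5p had 4020 normalized counts in OV, against 5514 in fl/fl and 21957 in d/d. It was 3.98-fold higher in d/d than in fl/fl (95% interval 3.87 to 4.10) and 0.729 of fl/fl in OV (0.697 to 0.762). In RPM these ratios were 4.75 and 0.534, outside those intervals, so their size depended on the scaling. miR-146b-5p had 15052, 11402 and 4472 normalized counts in OV, fl/fl and d/d, the order it has in MEF. It was 0.392 of fl/fl in d/d (0.380 to 0.405) and 1.32-fold higher in OV (1.29 to 1.35). In RPM, however, miR-146b-5p was 0.467 of fl/fl in d/d and 0.966 of fl/fl in OV. miR-146a-5p thus made up 21.1% of the pair in OV, against 32.6% in fl/fl and 83.1% in d/d.

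miR-155-5p was modest in these B cells, with 1068 normalized counts in OV, against 597 in fl/fl and 469 in d/d. It was 1.79-fold higher in OV than in fl/fl (1.61 to 1.99) and 0.786 of fl/fl in d/d (0.702 to 0.881). In RPM these ratios were 1.31 and 0.937, outside those intervals, so their size depended on the scaling. miR-155-3p had 54.9, 37.7 and 18.3 normalized counts in the same order, from 41, 40 and 23 reads, and was 0.484 of fl/fl in d/d (0.277 to 0.829). miR-146b-3p had 6, 2 and 6 reads, too few to compare.

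Of the 4 members kept in B cells, 0 lay past 2-fold in OV against fl/fl, where 6.30% of the 476 kept miRNAs were higher and 6.30% lower by that measure. In d/d against fl/fl 1 was higher and 2 were lower, where 16.2% of all kept miRNAs were higher and 18.1% lower. Of the 2 that were lower, miR-155-3p was at 0.577 of fl/fl in RPM and so not past 2-fold on that scale. Other things moved with the d/d library. Of the 7 fibroblast markers 6 were past 2-fold higher there, with a sum of 1138 RPM against 272 in fl/fl and 195 in OV. Of the 5 kept blood-cell markers 1 was past 2-fold higher and 1 lower. The myeloid miR-223-5p had 38.1 normalized counts and was listed at 0 in fl/fl. miR-150-5p had 8.73 against 62.2 in fl/fl, and miR-142a-5p had 90178 against 85053. MEF held miR-146a-5p at 17.2 to 230 RPM by group, and the d/d B-cell library at 2616. The part of fibroblasts, myeloid cells or other blood cells in the level of miR-146a-5p was not tested. The d/d library also had 1132 normalized counts of miR-9-5p against 16620 in fl/fl and 11983 in OV.

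Set side by side as RPM, a scale that ignores the separate scaling but moves with the abundant miRNAs, the 8 groups were ordered differently for each guide. For miR-146a-5p the order was B cell d/d (2616), B cell fl/fl (551), B cell OV (294), MEF OV (230 ± 45.5), MEF fl/fl (77.9 ± 5.91), MEF with empty plasmid (72.9 ± 8.56), MEF d/d (71.4 ± 7.73) and MEF with miR-290~295 (17.2 ± 3.78). The MEF fl/fl, Empty and d/d groups did not differ beyond their SD. For miR-146b-5p it was MEF OV (2474 ± 586), MEF fl/fl (1249 ± 95.6), B cell fl/fl (1140), B cell OV (1101), MEF with miR-290~295 (1049 ± 145), B cell d/d (533), Empty (489 ± 3.26) and MEF d/d (462 ± 60.6). B cell fl/fl, B cell OV and MEF with miR-290~295 lay within the SD of the last, and Empty and MEF d/d did not differ beyond theirs. For miR-155-5p all MEF groups, from 290 ± 62.4 in d/d to 419 ± 15.8 in fl/fl, were above the B cells, whose libraries had 55.9 (d/d), 59.6 (fl/fl) and 78.1 (OV). Between the MEF ends came OV (388 ± 122), Empty (365 ± 62.9) and miR-290~295 (347 ± 50.7), and no neighbours in the MEF order differed beyond their SD.

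By rank among all listed miRNAs of a library, miR-146a-5p was 39th by reads in d/d B cells, 74th in fl/fl and 82nd in OV, and between 113 and 309 in MEF. miR-146b-5p ranked between 36 and 101 in MEF and at 48 to 75 in B cells.

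The miRNAs whose levels followed each guide most closely over the 9 libraries of the miR-17~92 MEF set were ranked by Pearson r of log2 levels among 658 other kept miRNAs. The points share 3 groups, so r mostly reflects the group means. miR-146a-5p was followed most closely by miR-676-3p (0.97), miR-148a-5p (0.96) and miR-24-1-5p (0.95). Over the 6 libraries of the miR-290~295 set these gave -0.89, 0.51 and -0.97, so 2 of the 3 ran opposite there. miR-146b-5p was followed by miR-344b-3p (0.99), miR-92b-5p (0.98) and miR-106b-3p (0.98), with 0.96, 0.88 and -0.26 in the other set. miR-92b-5p had means of 25365, 13960 and 2634 normalized counts in OV, fl/fl and d/d, and 6273 and 20273 with the empty plasmid and with miR-290~295. miR-155-5p was followed by miR-3089-3p (0.95), miR-664-3p (0.94) and miR-151-5p (0.93), with -0.15, 0.81 and 0.52 in the other set.

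On a list of 10 other arms reported to be induced by NF-kappaB (miR-9, miR-21a, miR-132, miR-212 and miR-147), 8 were kept in the miR-17~92 set, and 0 rose and 3 fell in OV against fl/fl. These were miR-212-5p (log2 change -1.64), miR-132-5p (-1.26) and miR-132-3p (-0.96), arms of 2 neighbouring hairpins known as targets of CREB as well. In d/d against fl/fl 0 rose and 3 fell, miR-9-3p (-1.18), miR-147-3p (-0.83) and miR-9-5p (-0.61). In OV against d/d 2 rose, miR-9-3p (1.26) and miR-9-5p (0.82), and 4 fell, led by miR-212-5p (-1.85). With miR-290~295 3 of 10 rose, led by miR-9-3p (1.55), and 0 fell. Over all kept miRNAs 15.6% rose and 15.7% fell in OV against fl/fl, 30.7% rose and 27.6% fell in the d/d comparison with fl/fl, 26.7% rose and 25.7% fell in OV against d/d, and 16.7% rose and 22.3% fell with miR-290~295. Medians were -0.31, -0.30, -0.08 and 0.32 in these 4 comparisons, beside -0.07, 0.02, 0.02 and 0.02 over all kept miRNAs. With spike-in scaling none rose and 5 fell in d/d against fl/fl, 4 rose and 1 fell in OV against d/d, and 1 rose and 1 fell with miR-290~295, so these counts depended on the scaling.

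On a list of 14 miRNAs reported to act on parts or brakes of the pathway, 13 were kept in the miR-17~92 set, and its counts are to be read against the same shares. In OV against fl/fl 2 rose and 3 fell. Those that rose, miR-19b-3p (log2 change 1.52) and miR-19a-3p (1.32), are members of miR-17~92 itself and repress brakes of NF-kappaB, and the largest fall was that of miR-199a-5p (-0.62), which is also on the fibroblast list. In d/d against fl/fl 1 rose, miR-31-5p (0.57), and 6 fell, led by the cluster's own miR-19b-3p (-5.99) and miR-19a-3p (-5.57). In OV against d/d 2 rose, again miR-19b-3p (7.51) and miR-19a-3p (6.89), and 1 fell. The calls of these cluster members follow from the manipulation and say nothing of the rest of the list. With miR-290~295 2 of 11 rose, led by miR-31-5p (1.10), and 3 fell, led by miR-301a-3p (-0.66). Medians were -0.06, -0.29, 0.28 and -0.34, beside -0.07, 0.02, 0.02 and 0.02 over all kept miRNAs. With spike-in scaling 2 rose and 1 fell in OV against fl/fl, none rose and 9 fell in d/d against fl/fl, 9 rose and 0 fell in OV against d/d, and 1 rose and 7 fell with miR-290~295. Between miR-17~92 states these counts again include miR-19a-3p and miR-19b-3p. Over all kept miRNAs that scaling put 112 up and 44 down, 147 up and 283 down, 333 up and 120 down, and 56 up and 331 down in these comparisons.

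**Figure D5:**
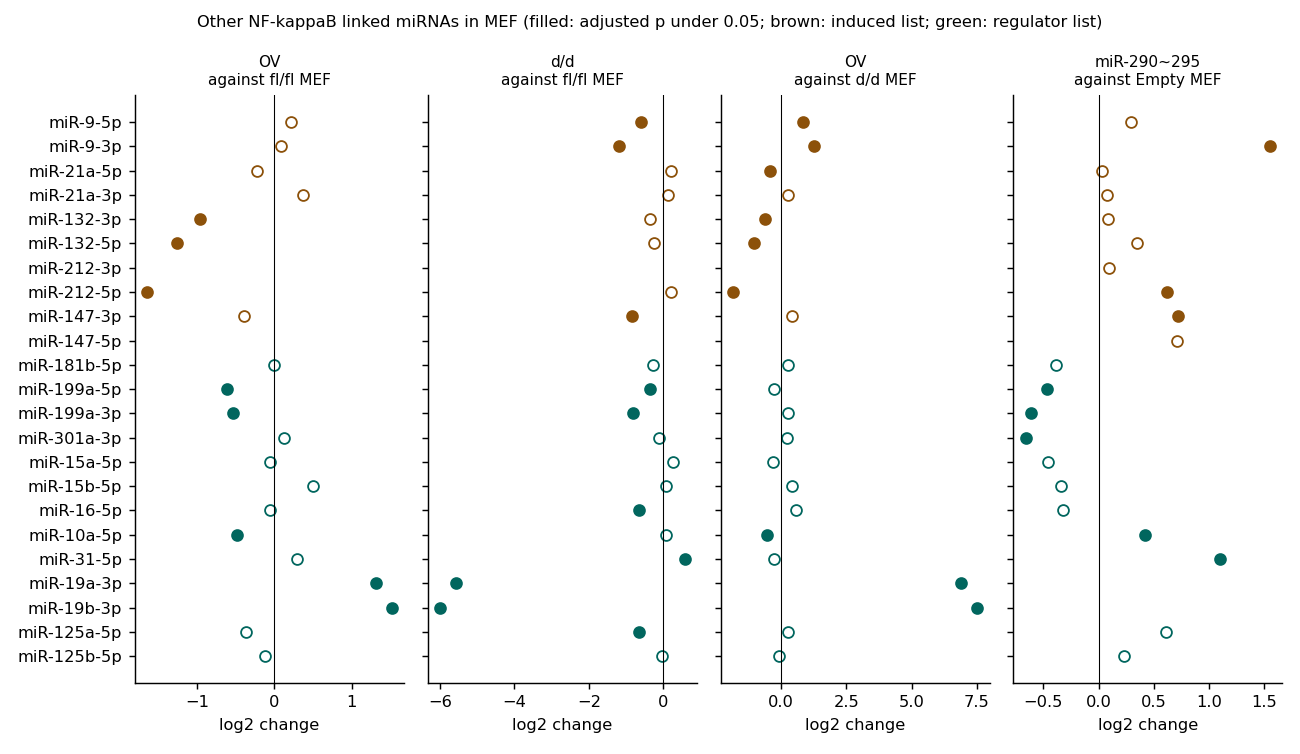
Log2 changes (x axes, which differ between panels) of the other NF-kappaB linked miRNAs kept in MEF (y axis), in 4 comparisons without spike-in scaling; filled points had an adjusted p under 0.05. Apart from the cluster's own miR-19a-3p and miR-19b-3p, the filled points lie between -1.85 and 1.55.

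In B cells miR-21a-5p, the most abundant arm of the induced list, had 335548, 412388 and 463477 normalized counts in OV, fl/fl and d/d. Of the 8 kept arms of that list 1 was past 2-fold higher and 1 lower in OV against fl/fl, and 0 were higher and 2 lower in d/d against fl/fl. Over all 476 kept miRNAs these shares were 6.30% higher and 6.30% lower in OV, and 16.2% higher and 18.1% lower in d/d. Of the 13 kept miRNAs of the other list 2 were higher and 0 lower in OV, and 4 were higher and 2 lower in d/d. The 2 higher in OV and the 2 lower in d/d were miR-19a-3p and miR-19b-3p, members of the manipulated cluster itself. Higher in d/d were miR-125a-5p, with 1520 normalized counts against 237 in fl/fl, and miR-31-5p, with 98.4 against 15.1. So were both arms of miR-199a, which are also on the fibroblast list. These counts have no replicate check.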

How the data were processed

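Total RNA with added spike-ins was gel purified and made into small RNA libraries with the NEBNext kit, per the labels' protocols. The deposited values are signals, that is normalized read counts per mature miRNA, and DESeq2 is named without a version in the submitters' processing notes. No source used here gives the aligner, counter or build. In every library the values were whole multiples of 1 step (100% of values within 0.0001), so whole reads could be recovered. The authors' 33 rlog columns were not used. The 5 tables gave 1204, 1265 and 756 miRNAs, and those whose mean was 10 normalized counts or more were kept (662, 840 and 476). Column names of the OV and fl/fl MEF libraries show the group and not the replicate, and were used by group.

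Differences in MEF come from limma (version 3.58.1, R 4.3.3) with its trend option, fitted to log2(deposited normalized count + 1) of the tables without spike-in scaling, with group as the only term. P-values were Benjamini-Hochberg adjusted over all kept miRNAs of a table, at a threshold of 0.05, and every adjusted p of a log2 change comes from limma unless edgeR 4.0.16 or DESeq2 1.42.0, run on recovered reads, is named. In the first MEF set all 3 groups entered 1 fit. The limma code was tested on simulated data. Within-library ratios were compared by two-sided exact permutation tests (12 tests). The ratio of the miR-146a arms had been planned and was not computed, since miR-146a-3p was not analysed here. B-cell folds have 95% intervals from read counts and no test. PCR reads are not independent molecules, so intervals cover counting error only.

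The miRNAs named are the members, the 3 miRNAs most like each guide, and of each list the largest rise and fall past the threshold, with abundant arms where a role is stated. miR-17-5p, miR-290a-5p and further list members, called or not, were added after their values were seen. Members and lists were chosen with earlier results of these data known. Alternatives were the spike-in table, pseudocounts, minimum levels, re-centred medians, other tools, fewer groups, a replicate block and leaving out each library.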

Additional observations from a re-analysis of the deposited data

Results flagged for a closer look

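In 4 cases among the members, every MEF library of a group lay on 1 side of the fl/fl libraries. The single B-cell library lay on the other side of its fl/fl library. The difference between the cell types was not tested. The same count was not made over all kept miRNAs, so the number of cases says nothing particular about the members. The ratio of group means of miR-146a-5p in OV against fl/fl was 2.88 in MEF and 0.729 in B cells. In d/d against fl/fl the ratio for miR-146a-5p was 0.842 in MEF and 3.98 in B cells. In the same contrast miR-155-3p had 1.58 in MEF and 0.484 in B cells. The MEF changes of miR-146a-5p and miR-155-3p in d/d against fl/fl did not pass the test (limma, adjusted p = 0.167 and 0.106). miR-146b-3p had 0.378 in MEF and 2.53 in B cells, the latter from 6 against 2 reads with a 95% counting interval of 0.452 to 25.6, which includes 1 and gives no direction.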

How the results depend on the processing

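Of 533 values recomputed under alternatives, 509 kept their direction and their side of the threshold or moved little. The calls of both miR-146 guides with miR-290~295 and in the 2 contrasts of OV MEF, and of miR-146b-5p and miR-155-5p in d/d against fl/fl, kept direction and threshold under every alternative run. The spike-in table gave log2 changes of -0.68 for miR-146a-5p in d/d against fl/fl, 1.06 for miR-155-5p in OV against d/d and -0.64 for miR-155-5p with miR-290~295, all now past the threshold. It turned the sign of miR-155-3p, uncalled in either table, to 0.18 in OV against d/d and to -0.0036 with miR-290~295. Re-centred medians gave -0.53 for miR-146a-5p in d/d against fl/fl and 0.65 for miR-155-5p in OV against d/d, the latter also called by edgeR (0.56) and DESeq2 (0.50). A pseudocount of 5 moved the log2 ratio of the miR-146b arms to -0.83 in d/d against fl/fl and to 1.56 in OV against d/d. In B cells RPM gave log2 folds against fl/fl of -0.91 for miR-146a-5p, -0.050 for miR-146b-5p and 0.39 for miR-155-5p in OV, and of 2.25, -1.10 and -0.094 in d/d, so that only miR-146b-5p in OV turned direction. The cause of these differences was not tested.

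Leaving out 1 library at a time gave 124 to 232 calls in OV against fl/fl, log2 changes of 0.28 to 0.65 for miR-155-5p in OV against d/d, and, for miR-155-3p, -0.10 (without FL4) to 0.77 in OV against fl/fl and 0.28 to 1.15 in d/d against fl/fl. Replicate numbers are shared by the groups of the miR-290~295 set. Same-numbered libraries did not consistently deviate together, with r of 0.28, 0.01 and -0.26. The highest r was between libraries of different number, at 0.39 for E3 and miR-290 2. The fit with the replicate number as a block gave 298 calls against 327 and left the members' calls as they were. In the miR-17~92 set no paired analysis was possible because the OV and fl/fl columns carry no replicate number of the labels. Depth limits the 3p arms, of which miR-146b-3p had as few as 2 reads in a library.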
